A study of Mus musculus with 18 samples.

Results

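*Car3*, *Hsd3b5*, *A1bg*, *Clec2h* and *Cib3* are 5 of the 37303 genes measured by RNA-Seq in mouse liver. They were picked by symbol for large falls in hepatic mRNA after asparaginase in mice lacking either of the amino acid response genes *Gcn2* and *Atf4*. Asparaginase (ASNase) is a leukemia drug that depletes asparagine and, less strongly, glutamine in blood. All mice were C57BL/6J: wild type (WT) or with a whole-body deletion of *Gcn2* (*Gcn2*-/-) or of *Atf4* (*Atf4*-/-). They received intraperitoneal ASNase at 3 IU per gram body weight, or the excipient phosphate buffered saline (PBS), on 8 days, and livers were taken 7.5 h after the last dose by the sample labels. The labels give ages from 8 to 16 weeks. There were 3 mice per group and 6 groups. Males numbered 1 of 3 in WT PBS, 2 of 3 in WT ASNase, 1 of 3 in each *Gcn2*-/- group and 2 of 3 in each *Atf4*-/- group, so the number of males was the same under PBS and ASNase within each knockout strain. It differed between the WT groups and between the knockout strains. It also differed between WT and *Gcn2*-/- mice under ASNase and between WT and *Atf4*-/- mice under PBS, so these comparisons are not balanced for sex. Because the deletions were not limited to liver, a difference between strains can arise in any tissue of the animal.

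The values are FPKM, a level counted in sequenced fragments and scaled for the length of the transcript and the number of mapped reads in the library. Cuffdiff estimated 1 FPKM per gene and group from the 3 libraries together, with a lower and an upper bound. Single mice cannot be seen, no p-value was computed, and the bounds stand in for replicate error. For genes over 3 FPKM the upper bound lay, in the median, 51.3 to 54.2% above the value, according to the group. The study reports the mapped reads of each library, but the number of fragments behind each gene's value is not given. A difference is given on the scale log2(FPKM + 0.1), which understates changes of genes with low levels. A gene was called higher or lower when FPKM was above 0 in both groups and over 3 in either, the intervals were separate and the difference exceeded 1.5 in size. The median difference of all genes eligible for a call was at most 0.08 in any comparison. *Eif2ak4*, which encodes GCN2, was at 2.31 and 2.96 FPKM in *Gcn2*-/- livers (PBS, ASNase) and at 3.04 and 2.39 in WT livers, so its gene-level FPKM did not mark the deletion. *Atf4* was at 32.3 and 29.3 FPKM in *Atf4*-/- livers against 50.4 and 63.1 in WT livers. The study reports from read density plots that a *Gcn2* exon and *Atf4* were absent in the respective knockouts. It also measured *Atf4* mRNA by RT-qPCR. Genes defining the hepatocyte were abundant in each group: 13 of the 20 hepatocyte markers had an estimate in every group, with minima of 145 FPKM or more, and *Alb* and *Trf* are listed at 0 because Cuffdiff marked them as having too many reads to estimate.

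The 5 genes encode unrelated proteins. *Car3* encodes carbonic anhydrase 3, a cytosolic enzyme abundant in liver, skeletal muscle and fat. *Hsd3b5* encodes a liver member of the 3-beta-hydroxysteroid dehydrogenase family, one that acts as a ketosteroid reductase and is known for a much higher level in adult male than female mouse liver. *A1bg* encodes a secreted plasma glycoprotein of the immunoglobulin superfamily and is known as a female-predominant liver gene in mice. *Clec2h* encodes a C-type lectin-like membrane protein of the family whose members are ligands of natural killer cell receptors, and *Cib3* a small calcium- and integrin-binding protein. Sex differences in rodent liver follow the pattern in which the pituitary releases growth hormone, acting through the growth hormone receptor, JAK2 and STAT5. GCN2 is the kinase that phosphorylates eIF2 when amino acids run short, and ATF4 is the transcription factor whose translation then increases.

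By the positions in the table (mm10, counted from 1), *Car3* (ENSMUSG00000027559) lies on chromosome 3 from 14863538 to 14872351 on the plus strand and *Hsd3b5* (ENSMUSG00000038092) on chromosome 3 from 98618636 to 98630309 on the minus strand. *A1bg* (ENSMUSG00000022347) lies on chromosome 15 from 60917589 to 60921270 on the minus strand, *Clec2h* (ENSMUSG00000030364) on chromosome 6 from 128662385 to 128677374 on the plus strand, and *Cib3* (ENSMUSG00000074240) on chromosome 8 from 72204335 to 72212837 on the minus strand. All are protein-coding in GENCODE M21, where the single *Hsd3b5* transcript has 3 exons and transcripts of the other genes have 2 to 7. Reads could be shared with paralogs for *Hsd3b5* above all: 7.79% of its 100-base windows also occur in transcripts of *Gm10681*, *Gm4450* or *Hsd3b4*. For *Clec2h* the share was 0.141% (*Clec2i*), and for *Car3*, *A1bg* and *Cib3* it was 0.

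To show the sequence next to these genes, the 300 bases around the start of each gene (250 before, 50 after; RefSeq, GRCm38.p6) were read and searched on both strands for 5 motifs. RefSeq windows matched 4 of the 5 genes, all but *Car3*, and the *Hsd3b5* window starts 15.2 kb from the gene's end in the table. The stretches before the start of *A1bg* (chr15:60921271-60921520, minus strand), the one gene with a match, and of *Clec2h* (chr6:128662135-128662384, plus strand), a gene called lower in both knockouts, are shown 5′ to 3′, with matches in capitals.
A1bg: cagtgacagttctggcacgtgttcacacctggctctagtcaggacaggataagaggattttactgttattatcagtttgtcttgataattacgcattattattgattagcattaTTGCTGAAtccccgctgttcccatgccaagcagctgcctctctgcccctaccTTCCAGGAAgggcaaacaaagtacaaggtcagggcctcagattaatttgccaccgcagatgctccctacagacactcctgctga
Clec2h: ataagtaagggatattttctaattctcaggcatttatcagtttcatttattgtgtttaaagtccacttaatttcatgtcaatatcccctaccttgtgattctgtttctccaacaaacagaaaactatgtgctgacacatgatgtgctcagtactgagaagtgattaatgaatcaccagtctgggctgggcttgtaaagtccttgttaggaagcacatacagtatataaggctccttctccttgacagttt
In *A1bg* the STAT5 motif TTCNNNGAA is matched by TTCCAGGAA at bases −84 to −76 before the start, and the C/EBP motif TTGCNNAA by TTGCTGAA at −136 to −129. These motifs are present in 8.30% and 10.8% of all 32851 promoter windows of that length. The windows of *Hsd3b5*, *Clec2h* and *Cib3* hold no match to them, nor do any of the 4 windows match CCAAT (37.4% of all windows), TATAAA (13.6%) or TGACG, the core of ATF sites (20.8%). A match is a string of letters and not a measured binding site, and promoter activity was not measured here.

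*Car3* was among the most abundant hepatic mRNAs before treatment and nearly vanished from both knockouts after ASNase. Its level was 1730 FPKM (433 to 3028) in WT PBS and 1161 (362 to 1959) in WT ASNase livers. The *Gcn2*-/- livers had 717 (295 to 1140) under PBS and 15.9 (8.89 to 22.8) under ASNase. The *Atf4*-/- livers had 640 (239 to 1041) under PBS and 2.15 (0.776 to 3.52) under ASNase. The 4 other groups were high with overlapping intervals, and the *Gcn2*-/- and *Atf4*-/- ASNase groups were low, each separate from all others. Ranked by FPKM within its group, *Car3* went from place 125 to place 3813 in *Gcn2*-/- livers and from place 124 to place 9775 in *Atf4*-/- livers, against 48 and 67 in WT livers. The level under ASNase was 2.21% of that under PBS in *Gcn2*-/- livers, a difference of −5.49, and 0.336% in *Atf4*-/- livers, a difference of −8.15. Even the nearest bounds stood 12.9-fold and 67.8-fold apart. Liver is bulk tissue, in which fewer cells of a type and less RNA per cell cannot be told apart.

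*Hsd3b5* had separate intervals in the untreated knockouts and overlapped WT in both. It was at 44.3 FPKM (13.9 to 74.7) in WT PBS and 55.2 (19.6 to 90.8) in WT ASNase livers. Its level in *Gcn2*-/- livers was 13.1 (4.01 to 22.3) under PBS and 0.180 (0 to 0.403) under ASNase. Its level in *Atf4*-/- livers was 105 (48.2 to 162) under PBS, the highest of the 6 groups, and 0.167 (0 to 0.348) under ASNase. The falls thus began from levels of 13.1 and 105 FPKM, with separate intervals, and ended at levels whose intervals overlapped. Males numbered 1 of 3 in the *Gcn2*-/- and 2 of 3 in the *Atf4*-/- PBS group, and the part of sex in the starting levels was not tested. Differences were −5.56 in *Gcn2*-/- and −8.62 in *Atf4*-/- livers, with nearest bounds 9.95-fold and 138-fold apart. The lower bounds under ASNase reach 0, so the size of the residual level is not determined.

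Under ASNase, *A1bg* differed more between the knockouts than any other member. It was at 32.0 FPKM (15.6 to 48.3) in WT PBS and 22.1 (5.89 to 38.4) in WT ASNase livers. Livers of *Gcn2*-/- mice had 62.1 (29.6 to 94.7) under PBS and 10.1 (4.50 to 15.6) under ASNase, so that 16.2% of the PBS level was left and the interval still overlapped that of WT ASNase. Livers of *Atf4*-/- mice had 42.7 (8.98 to 76.4) under PBS and 0.0922 (0 to 0.215) under ASNase, below every other group. The fall was −2.61 in *Gcn2*-/- livers, with nearest bounds 1.89-fold apart, and −7.80 in *Atf4*-/- livers, with nearest bounds 41.8-fold apart. The wording "nearly lost" therefore describes *A1bg* in *Atf4*-/- but not in *Gcn2*-/- livers.

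*Clec2h* was low in WT livers and highest in *Gcn2*-/- livers given PBS. It was at 1.90 FPKM (0.785 to 3.02) in WT PBS and 4.51 (2.29 to 6.72) in WT ASNase livers. Without GCN2 it was 20.9 (11.1 to 30.7) under PBS and 0.0906 (0 to 0.210) under ASNase. Without ATF4 it was 5.88 (2.69 to 9.06) under PBS and 0.00477 (0 to 0.0396) under ASNase. Both ASNase groups of the knockouts lay below both WT groups, with separate intervals. The differences were −6.78 and −5.83, and the nearest bounds were 52.8-fold and 67.9-fold apart. The log2 value was smaller in *Atf4*-/- livers although the level under ASNase was lower there, since the PBS level was lower and both treated levels lie under the 0.1 added to each FPKM.

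*Cib3* differed between the strains before any drug was given. It was at 4.74 FPKM (1.53 to 7.94) in WT PBS and 1.61 (0.283 to 2.94) in WT ASNase livers. Without GCN2 it was 30.0 (15.6 to 44.3) under PBS and 0.353 (0 to 0.8001) under ASNase, a fall of −6.05 with nearest bounds 19.5-fold apart. Without ATF4 it was 0.639 (0 to 1.31) under PBS and 0.0967 (0 to 0.302) under ASNase, both under 1 FPKM and with overlapping intervals. It was never over 3 FPKM in *Atf4*-/- livers and was not eligible for a call there. For *Cib3* in *Atf4*-/- livers the data thus show a low level under both treatments, not a loss under ASNase.

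**Figure D1:**
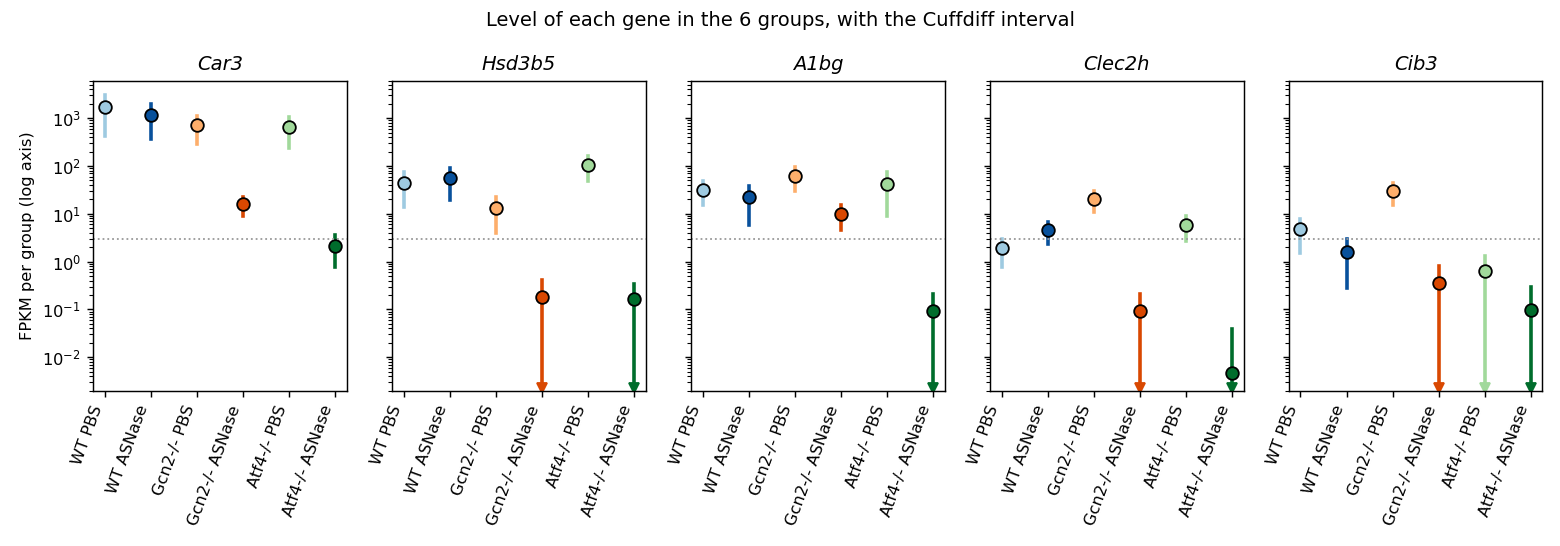
FPKM of the 5 genes in the 6 groups on a log axis, 1 panel a gene. Points are the pooled value of 3 libraries, bars run from the lower to the upper Cuffdiff bound, arrowheads mark a lower bound of 0, and the dotted line is 3 FPKM. The *Gcn2*-/- and *Atf4*-/- ASNase points lie lowest in each panel; for *A1bg* the *Gcn2*-/- ASNase interval overlaps that of WT ASNase, and for *Cib3* the *Atf4*-/- PBS point is low as well.

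The ASNase contrasts in *Gcn2*-/- and *Atf4*-/- livers chose the members, so their calls are a description. In *Gcn2*-/- livers 5 of 5 were called lower, where 2.13% of 9218 eligible genes were (and 1.56% were called higher). In *Atf4*-/- livers 4 of the 5 were called lower, where 4.63% of 9485 eligible genes were (and 2.74% were called higher), and *Cib3* was not eligible. Summed over the 5 genes, FPKM went from 844 to 26.6 in *Gcn2*-/- and from 794 to 2.51 in *Atf4*-/- livers, sums in which *Car3* is by far the largest part. Among 8911 genes eligible in both strains, *Clec2h*, *Hsd3b5* and *Car3* took places 1, 2 and 3 by the smaller of their 2 falls, and *A1bg* took place 61. The places depend on the 0.1 added to each FPKM: with 1 added, the smaller falls were −5.41 for *Car3*, −3.58 for *Hsd3b5* and −2.77 for *Clec2h*, the opposite order. In *Atf4*-/- livers alone *Hsd3b5*, *Car3* and *A1bg* were places 1, 2 and 3 and *Clec2h* place 22. In *Gcn2*-/- livers alone *Clec2h*, *Cib3* and *Hsd3b5* were places 1, 2 and 3, *Car3* place 7 and *A1bg* place 96. With 1 added, *Car3* fell furthest of the 5 there (−5.41), followed by *Cib3* (−4.52), *Clec2h* (−4.33), *Hsd3b5* (−3.58) and *A1bg* (−2.51).

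The genes next in rank by the smaller fall were *Hbb-b2* (−5.33 in *Gcn2*-/-, −5.31 in *Atf4*-/- livers) and *Hba-a2* (−4.97, −6.04), which encode adult globin chains of red blood cells, and *Ces1f* (−4.80, −7.79), a liver carboxylesterase. *Hbb-b2* went from 14.3 to 0.259 FPKM in *Gcn2*-/- livers and from 22.9 to 0.478 in *Atf4*-/- livers, and from 27.3 to 11.8 in WT livers. *Ces1f* went from 277 to 9.85, from 240 to 0.984 and, in WT livers, from 272 to 217. The next genes in rank thus include products of red cells beside a hepatocyte enzyme.

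**Figure D2:**
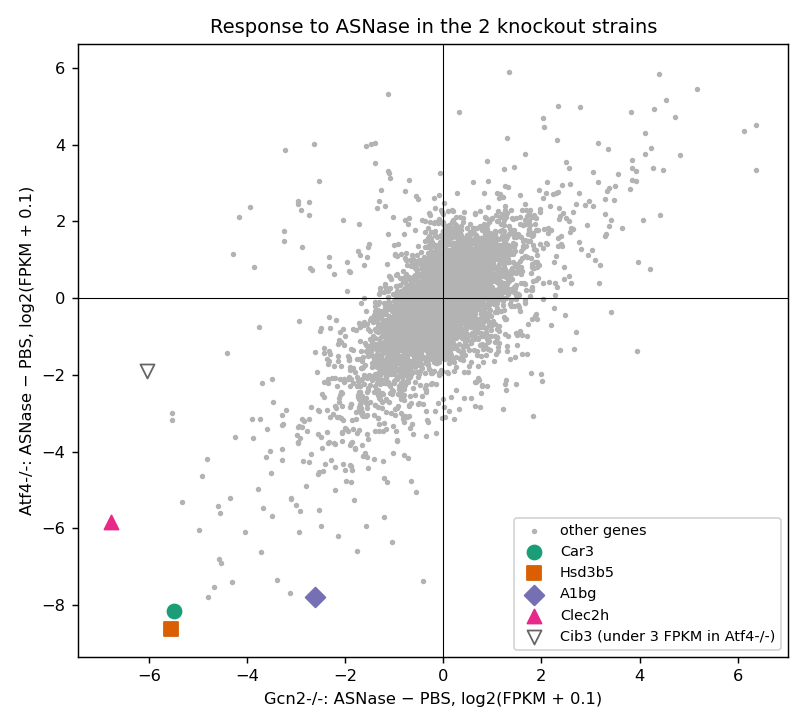
Log2 difference (ASNase minus PBS) in *Gcn2*-/- livers on the x axis and in *Atf4*-/- livers on the y axis for 8911 genes eligible in both (gray) and the 5 genes (colored). *Car3*, *Hsd3b5* and *Clec2h* lie at the lower left edge, *A1bg* lies at −2.61 on the x axis and −7.80 on the y axis, and *Cib3* (open, under 3 FPKM in *Atf4*-/- livers) at −6.05 and −1.91.

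WT livers were not used to choose the genes, and none of the 5 was called there after ASNase, where 0.121% of 9084 eligible genes were called lower and 0.76% higher. Directions were mixed: *Car3* −0.58, *A1bg* −0.53 and *Cib3* −1.498 against *Hsd3b5* 0.32 and *Clec2h* 1.20, all with overlapping intervals. The WT groups were not balanced for sex, with 1 male of 3 under PBS and 2 of 3 under ASNase. The part of sex in these differences was not tested. *Cib3* was just short of the limit of 1.5 on the log2 scale. With intervals this wide, changes of *Car3* to 67.1% or of *Cib3* to 34.1% of the PBS level could not be told from no change in WT livers.

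Under PBS the knockouts differed from WT in 2 of the genes. These comparisons and those under ASNase share groups with the contrasts that chose the members. In *Gcn2*-/- livers *Clec2h* was called higher by 3.39 (11.0-fold) and *Cib3* by 2.64 (6.33-fold), 2 of 5 where 0.392% of 8920 eligible genes were called higher and 0.65% lower. In *Atf4*-/- livers *Cib3* was called lower by −2.71, 1 of 5 where 0.763% of 9039 eligible genes were called lower and 0.354% higher, but its nearest bounds were only 1.16-fold apart. *Cib3* therefore stood in opposite directions from WT in the 2 knockouts. *Hsd3b5* was −1.75 in *Gcn2*-/- and 1.25 in *Atf4*-/- livers, *Car3* −1.27 and −1.44, and *A1bg* 0.96 and 0.42, all with intervals overlapping those of WT. *Clec2h* in *Atf4*-/- livers stood at 1.58, also with overlapping intervals, and would be called with the errors of both groups combined in quadrature.

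Under ASNase, the *Gcn2*-/- level was below the WT level for *Car3*, *Hsd3b5* and *Clec2h*, by −6.18, −7.62 and −4.59, and *A1bg* was not called (−1.13, overlapping intervals). That is 3 of 5, where 2.59% of 9423 eligible genes were called lower and 1.83% higher. In *Atf4*-/- livers the same 3 genes and *A1bg* were lower than in WT, by −9.01, −7.70, −5.46 and −6.85, which is 4 of 5 where 5.66% of 9577 were called lower and 2.59% higher. *Cib3* was under 3 FPKM in all ASNase groups and could not be called. Between the treated knockouts, *Car3* was lower in *Atf4*-/- than in *Gcn2*-/- livers by −2.83 (7.39-fold) and *A1bg* by −5.73 (109-fold, nearest bounds 21.0-fold apart), 2 of 5 where 2.29% of 9355 eligible genes were called lower and 0.898% higher. *Hsd3b5*, *Clec2h* and *Cib3* were under 1 FPKM in both of these groups with overlapping intervals, so a difference was not detectable.

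**Figure D3:**
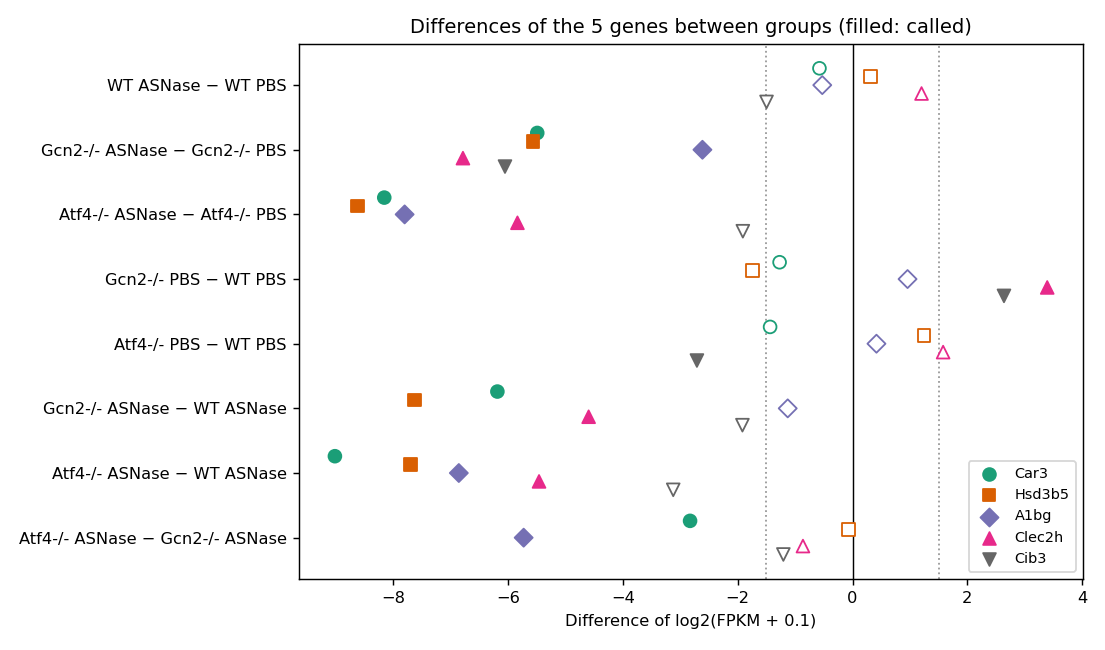
Difference of log2(FPKM + 0.1) on the x axis for each of the 5 genes in the 8 comparisons on the y axis. Filled symbols are called, open ones are not, and dotted lines mark −1.5 and 1.5. No symbol is filled in the WT row, and *Clec2h* and *Cib3* are filled on the right in the row of *Gcn2*-/- against WT livers under PBS.

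The paralogs of each gene show how far the falls extended within its family. Of the 16 carbonic anhydrases, which interconvert carbon dioxide and bicarbonate in different compartments, 6 were over 3 FPKM. *Car1*, the red cell form, went from 4.89 to 0.0320 FPKM in *Atf4*-/- livers (−5.24, called) and from 6.13 to 0.623 in *Gcn2*-/- livers (−3.11, not called). *Car8*, a related protein without enzyme activity, fell in *Atf4*-/- livers (−2.28). *Car5a*, the mitochondrial form of hepatocytes, went from 66.5 to 1.17 FPKM in *Atf4*-/- livers, but its intervals overlapped, and it was at 58.3 and 25.2 in *Gcn2*-/- livers. *Car2* and *Car14* were not called in any strain. *Car3* had held most of the summed FPKM of the family under PBS (717 of 842 in *Gcn2*-/- and 640 of 763 in *Atf4*-/- livers), and under ASNase the sums were 71.0 and 19.9. The other 10, such as *Car4*, *Car5b* and *Car13*, stayed under 3 FPKM in each group.

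In the 3-beta-hydroxysteroid dehydrogenase family, *Hsd3b2* and *Hsd3b3* fell with *Hsd3b5* in both knockouts, though less far. *Hsd3b2* went from 14.5 to 3.15 FPKM in *Gcn2*-/- (−2.17) and from 18.1 to 2.04 in *Atf4*-/- livers (−3.09), and *Hsd3b3* from 170 to 25.2 (−2.75) and from 141 to 15.7 (−3.16). *Hsd3b7*, which acts on bile acid precursors rather than steroid hormones, was at −1.24 and −2.47 with overlapping intervals. Beside *Hsd3b5*, which was chosen for these falls, 2 of the 3 other family genes over 3 FPKM were thus called lower in each knockout, where 2.13% and 4.63% of all eligible genes were, and none in WT livers. *Hsd3b1* and *Hsd3b6* were under 3 FPKM throughout, and *Hsd3b4* is listed at 0 in all groups.

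In the *Clec2* family, *Clec2d* was the other gene over 3 FPKM, at 116 and 76.3 FPKM (PBS, ASNase) without GCN2 and at 85.2 and 44.2 without ATF4, differences of −0.61 and −0.94 that were not called. *Clec2e*, *Clec2g*, *Clec2i*, *Clec2j* and *Clec2l* were under 1 FPKM, and *Clec2f* and *Clec2m* were not found under these names. *Cib1*, the widely expressed relative of *Cib3*, was at 72.5 and 93.5 FPKM without GCN2 and at 44.1 and 33.4 without ATF4, and was not called. *Cib2* fell in *Atf4*-/- livers, from 4.19 to 0.974 (−2.00), and was under 3 FPKM in *Gcn2*-/- livers. *Cib4* was at 0 in the other groups and at 1.55 FPKM in *Atf4*-/- ASNase livers, and *Tmc1* and *Tmc2*, the hair cell channel genes whose products bind CIB proteins, are listed at 0.

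**Figure D4:**
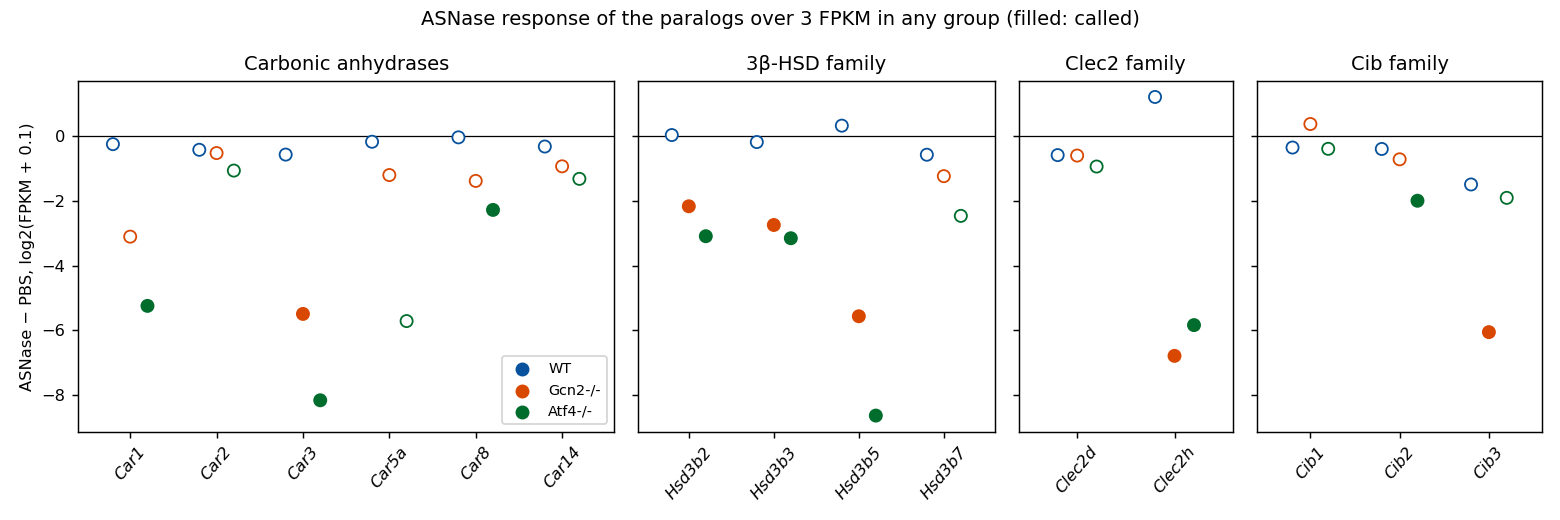
ASNase minus PBS difference of log2(FPKM + 0.1) on the y axis for the genes of the 4 families that passed 3 FPKM in any group, in WT (blue), *Gcn2*-/- (orange) and *Atf4*-/- (green) livers. Filled points are called. *Hsd3b2* and *Hsd3b3* are filled in both knockouts beside *Hsd3b5*, *Clec2d* and *Cib1* in none, and no WT point is filled.

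Among the genes beside the members on the chromosome, *Hsd3b2* was called lower in both knockouts and *Car1* in *Atf4*-/- livers. The other neighbors over 3 FPKM were not called lower in either. Of all eligible genes, 2.13% and 4.63% were called lower in *Gcn2*-/- and *Atf4*-/- livers. Within 100 kb of *Car3* lie *Car2*, 14.1 kb away and not called, and *Car1*, 85.1 kb away (−3.11, not called, and −5.24, called). *Hsd3b2* lies 78.9 kb from *Hsd3b5* (−2.17 and −3.09, both called). *Fam84b*, 92.5 kb from *A1bg*, was not called (0.27 and 0.10 in *Gcn2*-/- and *Atf4*-/- livers). *BC048546*, 80.8 kb from *Clec2h*, rose in *Atf4*-/- livers from 3.34 to 11.5 FPKM (1.76). Near *Cib3*, *Fam32a*, *Rab8a*, *Ap1m1* and *Tpm4* were over 3 FPKM and none was called, with *Fam32a* at 26.1 and 21.7 FPKM in *Gcn2*-/- livers only 6.89 kb away. The remaining neighbors, 3 beside *Hsd3b5*, 4 beside *Clec2h* and 8 beside *Cib3*, were under 1 FPKM.

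*Hsd3b5* and *A1bg* are known for opposite sex biases, and lists of such liver genes were examined beside them. Of 18 male-biased genes, 8 of the 13 eligible were called lower after ASNase in *Gcn2*-/- livers (median −2.55) and 12 of 16 in *Atf4*-/- livers (median −4.37), 0 in WT livers, and none higher in any strain. Of all eligible genes 2.13% and 4.63% were called lower in the knockouts and the medians were 0.02 and 0.08. The largest falls in *Atf4*-/- livers were those of *Cyp4a12a* (42.0 to 0.106 FPKM; −7.68), a fatty acid hydroxylase, *Slco1a1* (124 to 0.945; −6.90), an organic anion transporter, and *Selenbp2* (148 to 1.40; −6.63), a selenium-binding protein. These 3 also fell in *Gcn2*-/- livers, by −3.13, −4.52 and −3.73. *Cyp2d9* was at 108 and 125 FPKM in *Gcn2*-/- livers and was not called in either knockout. In all, 7 male-biased genes were called lower in both knockouts.

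Of 21 female-biased genes, 20 had 1 entry each (*Cux2* has several and was left out), and 6 of 15 eligible genes were called lower in *Gcn2*-/- livers (median −1.75) and 6 of 17 in *Atf4*-/- livers (median −2.72), again beside 2.13% and 4.63% of all eligible genes, with none higher. *Cyp2c69* (153 to 1.26 FPKM; −6.81 in *Atf4*-/- livers) and *Acot3* (26.5 to 0.291; −6.09) fell in both strains. *Sult3a1*, a sulfotransferase, fell in *Atf4*-/- (−6.59) and in WT livers (30.2 to 1.73; −4.05). Among WT mice, females numbered 2 of 3 under PBS and 1 of 3 under ASNase. The part of sex in the WT values of both lists was not tested. *Sult2a1*, another sulfotransferase, was at 24.7 and 79.0 FPKM in *Atf4*-/- livers and was not called. Genes known for either bias thus fell beside *Hsd3b5* and *A1bg*, and 3 female-biased genes were called lower in both knockouts. Of the Y-linked genes and *Xist*, 5 in all, 3 or 4 were eligible in each of the 8 comparisons, and none was called. The lower bound of *Xist* was 0 in every group, so its intervals could not separate, and *Kdm5d* was under 3 FPKM throughout. *Ddx3y* was at 6.199 and 5.88 FPKM in *Gcn2*-/- and at 11.4 and 14.2 in *Atf4*-/- livers. *Eif2s3y* was at 11.0 and 13.1 and at 23.2 and 26.4. *Kdm5d* was at 1.07 and 1.14 and at 2.01 and 1.99, and *Uty* at 1.40 and 1.82 and at 2.76 and 3.26. *Xist*, expressed in females, was at 89.8 and 65.1 and at 33.9 and 49.98. In WT livers *Ddx3y* was at 5.62 and 11.6 FPKM, with 1 and 2 males.

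**Figure D5:**
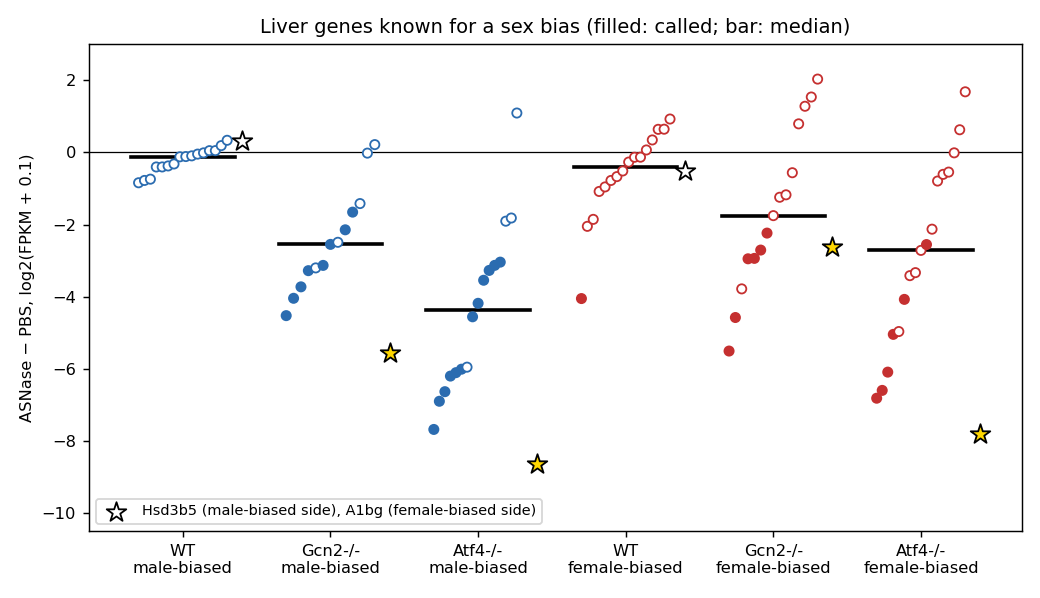
ASNase minus PBS difference of log2(FPKM + 0.1) on the y axis for the eligible male-biased (blue) and female-biased (red) liver genes in each strain. Filled points are called, bars are medians, and stars are *Hsd3b5* (male-biased side) and *A1bg* (female-biased side). The medians lie at −2.55 and −4.37 for male-biased and −1.75 and −2.72 for female-biased genes in *Gcn2*-/- and *Atf4*-/- livers.

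Of 17 genes of the growth hormone axis, the receptor *Ghr* fell in *Atf4*-/- livers from 207 to 33.7 FPKM (−2.61) and was at −1.31 in *Gcn2*-/- livers, not called. *Igfals*, which encodes the acid-labile subunit that carries IGF-1 in blood, fell in *Gcn2*-/- (64.3 to 17.7; −1.85) and *Atf4*-/- livers (58.8 to 2.52; −4.49). The feedback inhibitor *Socs3* rose in both (2.42 and 2.95) and *Socs1* in *Atf4*-/- livers (3.73). *Socs2* (−2.34 and 1.06) and *Cish* (−0.23 and −0.40) were not called in either knockout. In *Gcn2*-/- livers 1 of 15 eligible genes was called higher and 1 lower, where 1.56% and 2.13% of all eligible genes were. In *Atf4*-/- livers 2 of 17 were called higher and 2 lower, where 2.74% and 4.63% of all eligible genes were. *Stat5b* (−0.37 and −0.69), *Jak2*, *Hnf4a* and *Igf1* were not called in either knockout, and no gene of the list was called in WT livers. The median of the list was −0.26 in *Gcn2*-/-, −0.11 in *Atf4*-/- and 0.02 in WT livers.

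Among 16 other genes of steroid metabolism, 2 of 10 eligible were called lower in *Gcn2*-/- and 7 of 10 in *Atf4*-/- livers, and none in WT livers, with medians of −1.26, −2.53 and −0.17. The shares of all eligible genes called lower were 2.13%, 4.63% and 0.121%. *Hsd17b2* and *Hsd17b6*, hydroxysteroid dehydrogenases, fell in both (−1.62 and −2.62; −3.28 and −3.30). *Srd5a1*, a steroid 5-alpha-reductase (−4.39), *Akr1c6*, a ketosteroid reductase (−4.34), and *Hsd11b1*, which regenerates glucocorticoid (−3.47), fell furthest in *Atf4*-/- livers.

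Other tissues express *Car3*, and their markers were set beside it. The summed FPKM of 15 skeletal muscle genes was 1046 and 1471 in WT livers (PBS, ASNase), 6.72 and 11.3 without GCN2, and 82.4 and 186 without ATF4. Muscle RNA was thus far higher in the WT groups, and 10 of 13 eligible muscle genes were called lower in *Gcn2*-/- than in WT livers under PBS and 11 of 15 in *Atf4*-/- livers. Of all eligible genes, 0.65% and 0.763% were called lower in these comparisons. The part of muscle RNA in the *Car3* level of WT livers was not tested. Within the knockouts none of the eligible muscle genes, 1 in *Gcn2*-/- and 10 in *Atf4*-/- livers, was called after ASNase. *Atp2a1* was at 0.0251 and 0.131 FPKM in *Gcn2*-/- livers, and *Acta1* and *Myh1* were at 9.997 and 34.5 and at 2.68 and 10.6 in *Atf4*-/- livers. The sums of 9 adipose genes were 65.4 and 73.6 in WT, 29.2 and 84.8 in *Gcn2*-/- and 28.2 and 43.0 in *Atf4*-/- livers, where *Fabp4* rose in *Gcn2*-/- livers (1.95) and *Retn*, *Adrb3* and *Cfd* were not called. *Fabp4* makes up most of the adipose sums, which without it were 9.91 and 10.002 in *Gcn2*-/- and 9.70 and 9.35 in *Atf4*-/- livers. The part of muscle and fat RNA in the *Car3* levels of the knockouts was not tested either.

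Among 20 markers of hepatocytes themselves, 13 to 17 were eligible, according to the comparison, and none was called in any of the 8. Of all eligible genes, 2.13% and 4.63% were called lower after ASNase in *Gcn2*-/- and *Atf4*-/- livers. Where the lower bound under PBS was 0, as for *Hpd* in each strain, a fall could not be called. The summed FPKM of the 13 markers with an estimate in every group was 53079 and 30264 in *Gcn2*-/- livers (PBS, ASNase). It was 44842 and 21625 in *Atf4*-/- and 52152 and 42776 in WT livers. The median differences were −0.76 and −0.67, and in *Atf4*-/- livers *Ttr*, *Cyp2e1* and *Apoa2* stood at −2.05, −1.98 and −1.94 with overlapping intervals. Acute phase genes were examined as well. Over 7 of the 14 with an estimate in every group, the sums were 4201 and 45328 in *Gcn2*-/- and 2775 and 23332 in *Atf4*-/- livers, against 1481 and 1016 in WT livers. Calls of a higher level were made for 2 of 9 eligible genes in each knockout, where 1.56% and 2.74% of all eligible genes were: *Orm3* in both (6.38 and 3.33), *Apcs* in *Gcn2*-/- (2.94) and *Saa3* in *Atf4*-/- livers (23.2 to 672 FPKM; 4.85), while *Lcn2* was at 151 and 8691 FPKM there with overlapping intervals. The part of the acute phase genes in the levels of *Car3*, *Hsd3b5*, *A1bg*, *Clec2h* and *Cib3* was not tested.

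Across the 6 groups the patterns of the members were similar but not the same. Pearson's r of log2(FPKM + 0.1) was highest between *Car3* and *Hsd3b5* (0.937) and lowest between *Cib3* and *Hsd3b5* (0.527), over 6 pooled values that all include the groups used to choose the genes. The genes whose pattern was most like each member, of 9814 compared, were *Aldh7a1* (r = 0.999), *Sdha* (0.998) and *Mme* (0.998) for *Car3*, and *Hif1an* (0.997), *Eif2c1* (0.997) and *Slco1a1* (0.996) for *Hsd3b5*. For *A1bg* they were *Csrp2* (0.999), *Nr0b2* (0.998) and *Kdm1b* (0.998), for *Clec2h* *Dcaf8* (0.995), *Auh* (0.995) and *Cmtm8* (0.995), and for *Cib3* *Ndufs3* (0.994), *Ndufv2* (0.993) and *1110001A16Rik* (0.993). A likeness in pattern did not mean a like size: *Hif1an* ranged only between 4.58 and 5.25 FPKM, whereas *Slco1a1* ranged between 0.945 and 124. With 6 points, r over 0.95 was common, reached by 544 genes with *Car3*, 461 with *A1bg*, 168 with *Hsd3b5*, 161 with *Clec2h* and 60 with *Cib3*.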

How the data were processed

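Poly-A RNA from the livers of 18 mice in 6 groups was sequenced by the authors, who used TopHat against mm10 and pooled the 3 libraries of a group in Cuffdiff. The table they deposited holds FPKM values, 1 per gene and group, with the lower and upper FPKM bound and a status; 0 value columns lay outside the sample map. Groups came from the sample labels. The models planned for single libraries could not be fitted, since each group has 1 value. Differences were therefore taken as log2(FPKM + 0.1) in 8 comparisons. A gene was eligible with status OK and FPKM above 0 in both groups and over 3 in either, and was called when the absolute difference was over 1.5 and the intervals were separate; the FPKM and fold limits follow the study's methods. The members and gene lists were chosen with earlier results of these data known. Besides the 5 genes, those named were their paralogs, genes within 100 kb, the 3 most correlated genes over the 6 groups, the 3 next in rank by the smaller knockout fall, the 3 genes of each list with the largest difference in *Atf4*-/- livers, and the sex-chromosome genes; *Cyp2d9*, *Sult2a1*, *Ghr*, *Stat5b*, *Jak2*, *Hnf4a*, *Igf1*, *Hsd17b2*, *Hsd17b6*, *Cfd* and *Apcs* were named after their values were seen. *Socs2* and *Cish* were also named after their values were seen. Loci and shared 100-base windows came from GENCODE M21 and promoter windows from RefSeq. Alternatives were 7 other settings of the pseudocount, filter, scaling and interval. Python 3.11.15 with pandas 2.3.3, numpy 2.4.6 and matplotlib 3.10.9 was used.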

Additional observations from a re-analysis of the deposited data

How the results depend on the processing

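The calls of the 5 genes in the 8 comparisons were recomputed under 7 alternative settings. Of 280 values, 279 kept their direction and their side of the call limits. Direction could change only with scaling: the filter and interval settings leave each difference as it is, and another pseudocount cannot reverse a sign. No member was listed at 0, so including genes listed at 0 could not change any of its values or calls. The exception was *Clec2h* in *Atf4*-/- against WT livers under PBS, which at 1.58 was called when the errors of both groups were combined in quadrature. Median-ratio scaling, with factors between 0.978 and 1.03, changed none of the calls. The sizes of low values moved more: with 1 or 0.01 added to each FPKM in place of 0.1 (−5.83), *Clec2h* in *Atf4*-/- livers after ASNase was at −2.77 or −8.64, and *Hsd3b5* in *Gcn2*-/- livers at −3.58 or −6.11 (−5.56 with 0.1). *Car3* stayed between −5.41 and −5.50 in *Gcn2*-/- livers.

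Of 112 counts of called genes over all genes, 101 stayed within 1.5 times the count reported. With FPKM over 1 as the limit, 89 genes were lower in *Gcn2*-/- than WT livers under PBS (58 as reported). With no FPKM filter, 109 were higher in WT livers after ASNase (69), and 105 and 113 were lower under PBS in *Gcn2*-/- and *Atf4*-/- than in WT livers (58 and 69). With the combined interval, 19 were lower in WT livers after ASNase (11). With genes listed at 0 in 1 group included, 138 were higher and 41 lower in WT livers after ASNase, 91 higher and 101 lower in *Gcn2*-/- and 79 higher in *Atf4*-/- than in WT livers under PBS, and 186 higher in *Atf4*-/- than *Gcn2*-/- livers under ASNase (69, 11, 35, 58, 32 and 84 as reported). The filter changes and the zeros admit more genes; the combined interval asks for less separation.

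No paired analysis was possible because the table holds 1 pooled value per group. Leaving out single replicates was not run for the same reason, so the weight of any 1 mouse is unknown. Values whose lower bound is 0 limit what can be said of residual levels.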

Other observations

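Summed markers of lymphocytes, neutrophils and natural killer cells were low in each group and lower under ASNase than under PBS in all 3 strains, and their part in the levels of the 5 genes was not tested. Of 8 macrophage markers found, the scavenger receptor gene *Marco* rose after ASNase in *Gcn2*-/- (8.32 to 118 FPKM; 3.80) and *Atf4*-/- livers (9.22 to 67.3; 2.85) and *Cd5l* fell in *Atf4*-/- livers (91.6 to 31.3; −1.55), while the Kupffer cell gene *Clec4f* was at 102 and 30.1 FPKM there and at 67.3 and 15.9 in *Gcn2*-/- livers, with overlapping intervals in both. In *Atf4*-/- livers 7 of the 8 differences were below 0 (median −1.04), and in *Gcn2*-/- livers 3 of 8 (median 0.38). In WT livers all 8 were below 0 (median −0.82). The medians of all eligible genes were −0.01 in WT, 0.02 in *Gcn2*-/- and 0.08 in *Atf4*-/- livers. The macrophage sums were 212 and 344 in *Gcn2*-/- and 370 and 207 in *Atf4*-/- livers, against 319 and 172 in WT livers (PBS, ASNase).

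Natural killer cells carry receptors for ligands of the *Clec2* family. The 9 natural killer receptor genes summed to 2.72 and 1.22 FPKM in *Gcn2*-/-, 3.90 and 0.640 in *Atf4*-/- and 4.05 and 2.001 in WT livers, and none was eligible for a call. *Klrk1*, *Klrd1* and *Klrb1c* were at 1.32 and 0.109, 0.732 and 0.0891, and 0.489 and 0.0664 FPKM in *Atf4*-/- livers. The sums of 9 lymphocyte genes were 3.85 and 0.991, 4.71 and 0.778, and 5.55 and 1.79 in the same order, with *Cd79b*, *Cd79a* and *Ms4a1* under 1.5 FPKM in every group, and none of the 9 was eligible for a call. *Cd79b*, of B cells, was at 1.13 (0.264 to 1.998) and 0.0820 FPKM (0 to 0.224) in *Atf4*-/- livers, a difference of −2.76 with separate intervals.

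Of 9 neutrophil genes, *S100a9* fell in *Gcn2*-/- livers (5.64 to 0.171 FPKM; −4.41), and *Elane* and *Retnlg* were under 1.5 FPKM in every group. The neutrophil sums were 12.0 and 1.67 in *Gcn2*-/-, 16.8 and 6.62 in *Atf4*-/- and 8.499 and 5.94 in WT livers. Of 6 bile duct genes, *Spp1* alone was eligible and was not called (28.2 and 16.3 FPKM in *Atf4*-/- livers), and *Sox9* and *Krt19* were under 3 FPKM.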
